A study of Mus musculus with 6 samples.

Results

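Integrin subunits were examined in microglia that carried 1 or 2 copies of a disrupted Bhlhe41 allele. The genes followed were Itgam, Itgal, Itga4, Itga5, Itga6, Itga9, Itgav, Itgb1, Itgb2 and Itgb5. Every array probe whose transcript accession maps to one of these 10 symbols was taken, which gave 16 of the 56605 probes on the array, for 10 of the 23462 genes that probes could be named for. Itga6 had 3 probes, Itgam, Itga4, Itga9 and Itgb1 had 2 each, and the other 5 genes had 1 each.

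Total RNA of sorted microglia was labelled with Cy3 and hybridised to 6 SurePrint G3 Mouse arrays, which give 1 fluorescence intensity per probe. The control group, B41 HET, comprised 3 samples from young, 3-month-old Bhlhe41 dTomato-Cre/+ mice. The deficient group, B41 KO, comprised 3 samples from Bhlhe41 dTomato-Cre/dTomato-Cre mice of the same age. The allele makes no Bhlhe41 protein. It is a knock-in of a dTomato and Cre reporter, closed by a polyadenylation signal before the coding sequence, and the reporter is under the control of the gene's own promoter. The controls therefore also carried the cassette, in 1 copy, and both groups expressed Cre. The mice were on the C57BL/6 background, without a wild-type group on these arrays. The methods describe each sample as a pool of several mice, whereas GEO's labels count 3 mice per genotype. Cells were enriched on Percoll and sorted as CD45low CD11b+ Cx3cr1+, and CD11b is the protein product of Itgam, so that Itgam was itself part of the gate.

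Integrins are adhesion receptors made of 1 alpha and 1 beta subunit, which link the extracellular matrix or counter-receptors on other cells to the actin cytoskeleton. Itgb2 (CD18) is the beta subunit of the leukocyte integrins, and pairs with Itgam to form complement receptor 3 and with Itgal to form LFA-1, the receptor for the ICAM family. Itgb1 pairs with many alpha subunits, among them Itga4 and Itga9, which bind VCAM1 and several matrix proteins, Itga5, which binds fibronectin, and Itga6, which binds laminins, while Itgav pairs with Itgb5 to bind vitronectin and other ligands and takes part in the activation of latent TGF-beta. Complement receptor 3 of microglia is known for its part in phagocytosis and in the removal of synapses.

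Bhlhe41 encodes a basic helix-loop-helix repressor that binds E-boxes, so the letters of the E-box were looked for in promoters. RefSeq promoter windows on GRCm38.p6, each of 300 bases, were at hand for 7 of the 10 genes (Itgam, Itga4, Itga5, Itga9, Itgav, Itgb1 and Itgb5). The E-box CACGTG, which reads the same on both strands, was in 0 of these 7 windows, against 7.15% of all 32851 windows. The looser E-box CANNTG, whose matches include those of CACGTG, was in 5 of the 7 windows, against 72.3% of all windows. The windows of Itga9 and Itgav lie at a start annotated inside the gene. Of the 5 windows at a gene's first base, 0 held CACGTG and 4 held CANNTG. These counts describe letters and not binding. The 250 bases ahead of the annotated start are shown for Itga5, the subunit with a window whose level fell in B41 KO, and for Itgam, whose level did not change detectably. Each is given 5′ to 3′ on the strand of its gene with CANNTG in capitals, Itga5 from the minus strand at chr15:103366792-103367041 and Itgam from the plus strand at chr7:128062390-128062639.
Itga5: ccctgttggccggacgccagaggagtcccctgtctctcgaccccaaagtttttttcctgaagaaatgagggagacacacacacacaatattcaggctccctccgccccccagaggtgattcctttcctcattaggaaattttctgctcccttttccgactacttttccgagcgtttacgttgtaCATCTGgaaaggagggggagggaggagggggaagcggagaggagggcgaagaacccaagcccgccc
Itgam: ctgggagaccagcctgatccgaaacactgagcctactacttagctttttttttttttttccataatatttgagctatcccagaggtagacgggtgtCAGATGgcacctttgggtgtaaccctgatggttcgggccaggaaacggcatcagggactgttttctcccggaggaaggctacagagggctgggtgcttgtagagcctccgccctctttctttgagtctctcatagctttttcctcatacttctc
Each of these stretches holds 1 CANNTG match, and neither holds CACGTG.

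The 6 arrays were alike in quality. Between 39654 and 42719 of the 56605 probes (70.1% to 75.5%) were well above background on each array and 0 were saturated. Pearson correlations of log2 intensities were 0.989 to 0.993 within a genotype and 0.985 to 0.989 between genotypes. On the slide, row 1 held the 3 samples of B41 HET together with B41 KO replicate 1, and row 2 held B41 KO replicates 2 and 3. The targeted gene has 2 probes. The brighter Bhlhe41 probe read 7.95, 7.87 and 7.65 in B41 HET and 8.56, 7.84 and 8.21 in B41 KO on the log2 intensity scale, and the other read 7.86, 7.58 and 7.40 in B41 HET and 7.96, 7.90 and 7.96 in B41 KO. Neither probe was called (limma adjusted p = 0.330 and 0.203), so Bhlhe41 transcript was not detectably lower in the samples labelled B41 KO. Where these probes lie relative to the cassette was not examined, so they do not check the labels, and B41 KO stands throughout for the samples labelled that way.

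Itgal and Itga5 fell in B41 KO, by 1.05 and 0.83 on the log2 scale. Itga4 was at background. The log2 fold changes of the other 7 genes lay between -0.38, of Itgb2, and 0.38, of Itgav, and none of these genes was called. Fits were made in limma, and p was adjusted by the Benjamini-Hochberg method over every probe. A probe was called when its adjusted p was 0.05 or less and its log2 fold change was at least 0.5 in size. Of the 16 integrin probes, 2 were called lower, against 3.34% of all 56601 tested probes, and 0 were called higher, against 1.72%. The adjusted p alone was met by 3 of the 16, against 6.73% of all probes, and an unadjusted p under 0.05 was met by 5 of the 16, against 23.0% of all probes. All 3 B41 KO samples lay below all 3 B41 HET samples for 6 of the 16 probes, against 15.2% of all probes, and above them for 1 of the 16, against 14.5%. The median log2 fold change was -0.10 over the 16 probes and 0.02 over all tested probes. Of the 16 probes, 14 were well above background on all 6 arrays, and the other two, both of Itga4, were above it on none.

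**Figure D1:**
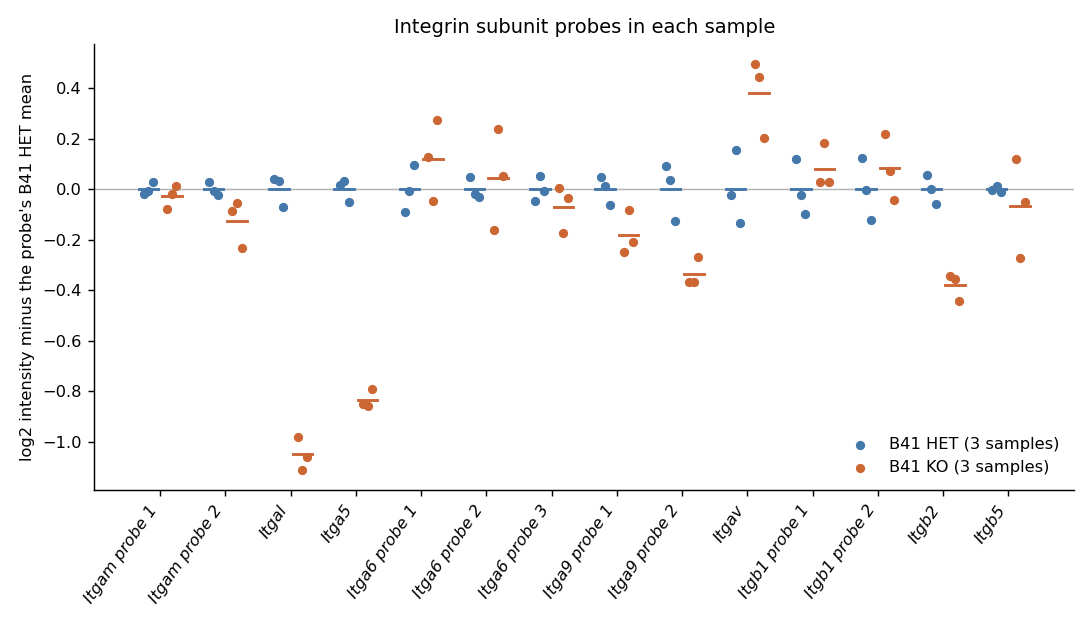
Log2 intensity of the 14 integrin probes well above background on all 6 arrays, as the difference from each probe's B41 HET mean (y axis, log2 units), with points for the 3 samples of each genotype and bars for the means. Itgal and Itga5 stand apart in all 3 B41 KO samples, and the 3 B41 KO samples of Itgb2 lie below its B41 HET samples by at least 0.29.

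Among the leukocyte integrins, Itgal fell and its beta partner Itgb2 and the alpha subunit Itgam were not called. Itgal, the alpha subunit of LFA-1, read 8.33, 8.32 and 8.21 in the 3 B41 HET samples and 7.31, 7.18 and 7.23 in the 3 B41 KO samples on the log2 intensity scale. The groups did not overlap, and the highest B41 KO sample lay 0.91 below the lowest B41 HET sample. The log2 fold change was -1.05 ± 0.08 (SE, n = 3 per genotype, 95% confidence interval -1.24 to -0.86, limma adjusted p = 0.00375), which is a 2.07-fold lower intensity in B41 KO. The mean log2 intensity was 8.29 ± 0.06 in B41 HET and 7.24 ± 0.07 in B41 KO (SD, n = 3).

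The brighter probe of Itgam, which encodes CD11b, read 14.59, 14.60 and 14.64 in B41 HET and 14.53, 14.59 and 14.62 in B41 KO. The samples overlapped, and the log2 fold change was -0.03 ± 0.07 (SE, 95% confidence interval -0.19 to 0.14, limma adjusted p = 0.855). The second Itgam probe read 9.75, 9.71 and 9.70 in B41 HET and 9.63, 9.67 and 9.49 in B41 KO. Its groups were separated by only 0.03, and its log2 fold change of -0.13 ± 0.08 (SE) missed the threshold (limma adjusted p = 0.412). Cells of both genotypes had passed a CD11b gate, and what this gate did to the Itgam values was not tested.

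Itgb2, the beta partner of both, read 14.87, 14.81 and 14.75 in B41 HET and 14.47, 14.46 and 14.37 in B41 KO. The groups were 0.29 apart without overlap. The log2 fold change of -0.38 ± 0.07 (SE, 95% confidence interval -0.56 to -0.20, limma adjusted p = 0.0403) met the adjusted p but not the fold threshold, so Itgb2 was not called. With each sample left out in turn its adjusted p ran from 0.0860 to 0.134, and blocking on the slide row gave 0.247.

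Itgal and Itgb2 are also expressed by other leukocytes, and transcripts of such cells differed between the groups. By the brightest probe, 4.01% of all 23462 named genes were called lower and 1.44% higher. Of 12 neutrophil genes, 9 were called lower in B41 KO, with a median log2 fold change of -2.16. Their summed intensity was 31341 to 35235 in the B41 HET samples and 6333 to 6719 in the B41 KO samples, and all 12, Ly6g and Ngp among them, were above background on all 6 arrays. Of 9 monocyte genes, 4 were called lower, among them Ly6c2 at -2.10 and Chil3 at -2.26 on the log2 scale. The summed intensity of the monocyte genes was 81010 to 87352 in B41 HET and 77810 to 93648 in B41 KO, most of it from Ms4a4c, whose log2 fold change was 0.04. Of 8 border macrophage genes, 3 were called lower (2432 to 2608 against 1680 to 1855), as were 2 of 8 dendritic cell genes (344 to 385 against 189 to 214, Xcr1 not above background) and 2 of 8 endothelial genes (1210 to 1324 against 476 to 509, with Cdh5, Flt1 and Tek not above background). T and NK cell genes had 0 of 10 called (578 to 614 against 611 to 638, Cd3g not above background), B cell genes 1 of 9 (1329 to 1518 against 1424 to 1448, Ms4a1 not above background) and platelet and megakaryocyte genes 1 of 8 (1721 to 1813 against 1611 to 1771, Ppbp not above background). Of 12 microglial genes, all above background on every array, 1 was called, Fcrls, with a log2 fold change of -0.76. In bulk samples fewer cells of a type and less RNA per cell cannot be told apart. The CD45low CD11b+ Cx3cr1+ gate is meant to select microglia and leave out neutrophils, monocytes, dendritic cells, border macrophages, lymphocytes and endothelial cells. The paper gives the purity of the sort only as a lower limit, short of complete. The part of these other cells in the lower Itgal, Itgb2 and Itga5 values was not tested.

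Among the subunits that pair with Itgb1, Itga5 fell and the others did not pass the test. Itga5, the alpha subunit of the fibronectin receptor, read 9.73, 9.75 and 9.66 in B41 HET and 8.86, 8.86 and 8.92 in B41 KO. The groups were 0.74 apart, with SDs of 0.04 within each. The log2 fold change was -0.83 ± 0.07 (SE, n = 3 per genotype, limma adjusted p = 0.00506), which is a 1.78-fold lower intensity. With the slide row as a block the log2 fold change was -0.85 and the limma adjusted p 0.0581, so that the call was lost.

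Itga9, whose product pairs with Itgb1 to bind VCAM1 and tenascin, did not pass the test on either of its probes. The brighter probe read 8.97, 8.94 and 8.86 in B41 HET and 8.67, 8.84 and 8.71 in B41 KO, with a log2 fold change of -0.18 ± 0.08 (SE, limma adjusted p = 0.253). The other read 7.79, 7.73 and 7.57 in B41 HET and 7.33, 7.33 and 7.43 in B41 KO, with a log2 fold change of -0.33 ± 0.09 (SE, limma adjusted p = 0.0847). On both probes the B41 KO samples lay below the B41 HET samples, by 0.02 and 0.14.

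Itga6, the laminin receptor subunit, had 3 probes that overlapped between the genotypes. The brightest read 12.05, 12.14 and 12.24 in B41 HET and 12.28, 12.10 and 12.42 in B41 KO. The 3 log2 fold changes were 0.12, 0.04 and -0.07, with limma adjusted p of 0.585 to 0.869. The 95% confidence intervals of the 3 probes all lay between -0.27 and 0.39, so a change of 0.5 in log2 was outside each of them.

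The brighter probe of Itgb1, the common beta partner, read 11.33, 11.19 and 11.11 in B41 HET and 11.24, 11.39 and 11.24 in B41 KO, and the second 10.45, 10.33 and 10.21 against 10.55, 10.40 and 10.29. The samples overlapped on both. Both log2 fold changes were 0.08, with confidence intervals of -0.15 to 0.31 and -0.18 to 0.35. Itga4, the alpha subunit of VLA-4 on lymphocytes and monocytes, was at background on every array with either probe, so no difference was read from it. Its measured means were 2.67 and 2.33 on one probe and 1.07 and 0.83 on the other, in B41 HET and B41 KO.

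Neither subunit of the vitronectin receptor, Itgav with Itgb5, passed the test. Itgav read 6.15, 6.33 and 6.04 in B41 HET and 6.67, 6.62 and 6.38 in B41 KO. It was the only one of the 16 probes with every B41 KO sample above every B41 HET sample, by 0.05. The log2 fold change of 0.38 ± 0.12 (SE, 95% confidence interval 0.08 to 0.68) did not pass the test (limma adjusted p = 0.132). Itgb5 read 13.30, 13.32 and 13.29 in B41 HET and 13.43, 13.03 and 13.25 in B41 KO. The B41 KO samples spread more widely, with an SD of 0.20 against 0.01, and the log2 fold change was -0.07 ± 0.11 (SE, limma adjusted p = 0.782).

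Because a heterodimer needs both subunits, the difference between an alpha probe and its beta partner on the same array was also compared, with each probe's B41 HET mean set to 0. These 6 pairs were chosen after the values were seen and reuse the probe values given above, so they add no separate support. How often other pairs of probes do not overlap was not examined. For single probes, all B41 KO samples lay below all B41 HET samples for 15.2% of all probes and above them for 14.5%. Itgal minus Itgb2 was -0.64, -0.76 and -0.62 in the 3 B41 KO samples, with B41 HET samples between -0.02 and 0.03. Itga5 minus Itgb1 was -0.88, -1.04 and -0.82, with B41 HET samples between -0.10 and 0.06. Itgam minus Itgb2 lay the other way, at 0.27, 0.34 and 0.46 in B41 KO and -0.08 to 0.09 in B41 HET. Itgav minus Itgb5 had a mean difference of 0.45 and Itga9 minus Itgb1 one of -0.26, both without overlap. Itga6 minus Itgb1 overlapped, with a mean difference of 0.04. With 3 samples against 3 the smallest two-sided p of an exact permutation test is 0.1, which the 5 pairs without overlap gave, or 0.12 after Benjamini-Hochberg adjustment over the 6 pairs, and Itga6 minus Itgb1 gave an exact p of 0.8.

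**Figure D2:**
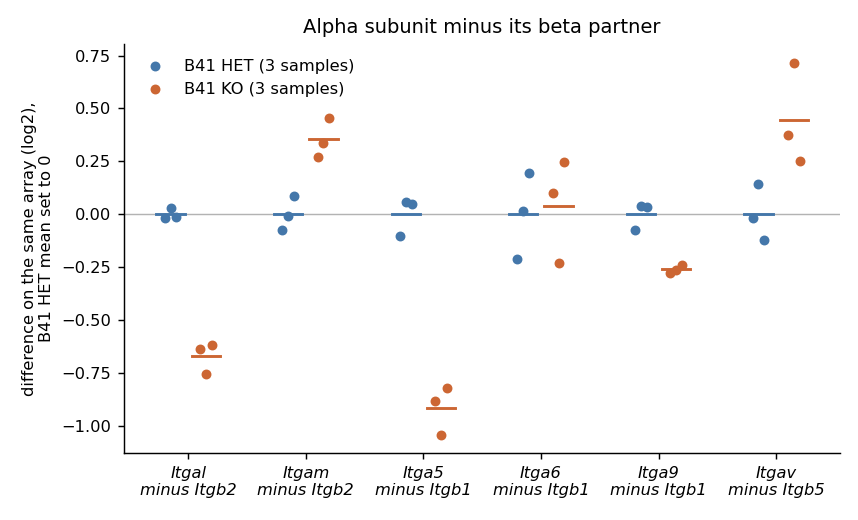
Difference between an alpha subunit and its beta partner on the same array (y axis, log2 units, B41 HET mean set to 0) for 6 pairs, with points for samples and bars for means of 3. Itgal minus Itgb2 and Itga5 minus Itgb1 are lower in all 3 B41 KO samples than in any B41 HET sample. Itga6 minus Itgb1 overlaps between the genotypes.

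In the rest of the family, 18 other integrin genes, each by its brightest probe, 1 was called lower and 0 higher, against the shares of 4.01% and 1.44% over all genes. The called gene was Itgb2l, a beta subunit close to Itgb2 that is known from neutrophils. It read 8.46, 8.29 and 8.32 in B41 HET and 5.82, 5.71 and 5.23 in B41 KO, without overlap. Its log2 fold change was -2.77 ± 0.17 (SE, limma adjusted p = 0.00253), a 6.82-fold lower intensity, beside the neutrophil genes given above, whose part in it was not tested.

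The median over the 18 genes was -0.01, against 0.01 over all genes. Itgax, which encodes CD11c, had a log2 fold change of 0.08 on its brighter probe and -0.48 on the other. Itgae, the CD103 subunit of mucosal lymphocytes and some dendritic cells, had a log2 fold change of -0.22. Itgb3, the other classical partner of Itgav, had a log2 fold change of 0.28 on its brighter probe and -0.02 on the other. Itgb7, the partner of Itga4 and Itgae, had 0.03 and -0.18, and Itgb8, which with Itgav activates latent TGF-beta, had -0.31 and was above background on only 3 of the 6 arrays. Their limma adjusted p ran from 0.258 to 0.945, and none was called. Itga2, Itga8, Itga11, Itgb6 and Itgbl1 were not well above background on any array.

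**Figure D3:**
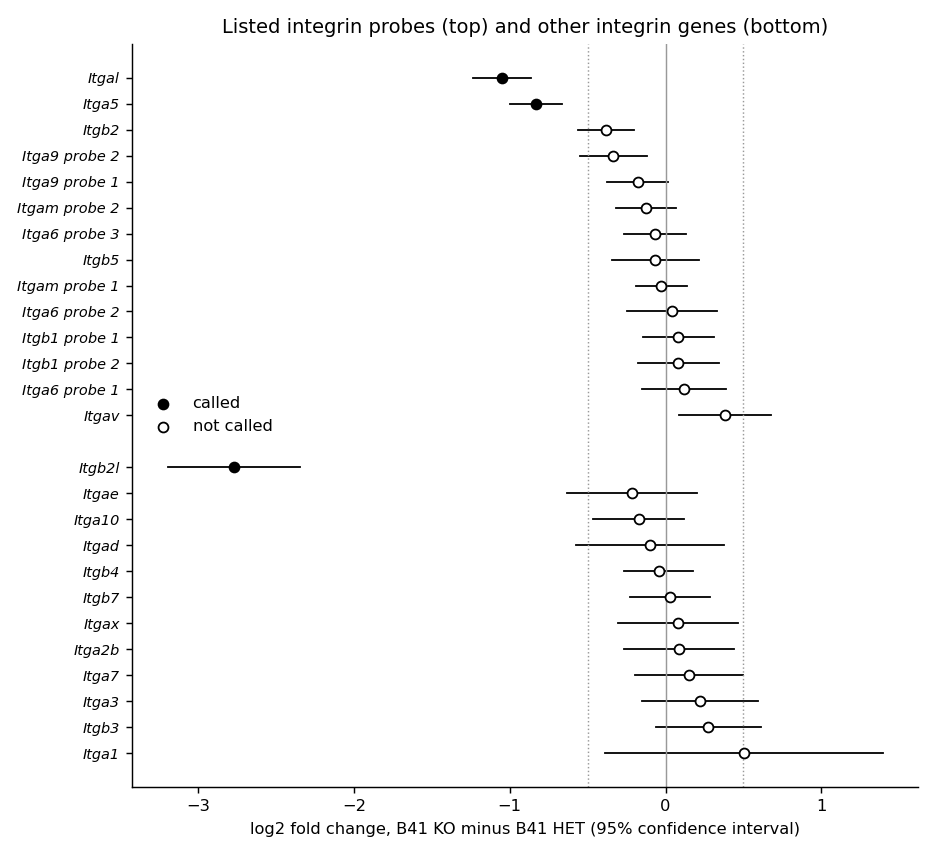
Log2 fold change of B41 KO against B41 HET (x axis) with 95% confidence interval for the 14 probes of the listed genes and, below, for the 12 other integrin genes well above background on all 6 arrays. Filled points are called, dotted lines mark a log2 fold change of 0.5 in either direction, and Itgb2l at -2.77, Itgal at -1.05 and Itga5 at -0.83 lie beyond the lower line.

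Genes that activate integrins or couple them to the cytoskeleton showed 4 of 40 called lower and 0 higher by the brightest probe, against 4.01% and 1.44% of all genes, and their median log2 fold change was -0.15. Called were the Src family kinases Src (-0.69 ± 0.10, limma adjusted p = 0.0207), Fyn (-0.56 ± 0.09, limma adjusted p = 0.0296) and Fgr (-0.52 ± 0.10, limma adjusted p = 0.0462), which signal below integrins, and Itgb1bp1 (-0.63 ± 0.09, limma adjusted p = 0.0199), which encodes the ICAP-1 inhibitor of Itgb1 activation (log2 fold change ± SE). Src read 10.69, 10.73 and 10.45 in B41 HET and 9.97, 9.95 and 9.87 in B41 KO, but its second probe gave 0.08 (limma adjusted p = 0.755), so the 2 Src probes disagree. Both Fgr probes were called, the second at -0.74. Talin 1 (Tln1), which opens integrins from within, had a log2 fold change of 0.02, and kindlin 3 (Fermt3), the kindlin of blood cells, one of -0.26 (limma adjusted p = 0.0787). With any 1 sample left out between 0 and 2 of these 40 genes were called, and blocking on the slide row left 0.

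Of 39 measured ligand and counter-receptor genes, 5 were called lower and 1 higher, against 4.01% and 1.44% of all genes, and the median was -0.03. Vitronectin (Vtn), the ligand of Itgav with Itgb5, read 5.30, 4.83 and 4.96 in B41 HET and 3.90, 3.49 and 3.29 in B41 KO, with a log2 fold change of -1.47 ± 0.20 (SE, limma adjusted p = 0.0182). Emilin1, a matrix glycoprotein bound by Itga4 and Itga9 with Itgb1, changed by -1.09 ± 0.15 (SE, limma adjusted p = 0.0176). C3, whose cleavage product iC3b is the ligand of complement receptor 3, was called on both probes, at -0.55 and -1.15. The part of the other cell types given above in the ligand and adaptor values was not tested.

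The ligands of LFA-1 differed in direction. Icam1 read 12.89, 12.87 and 12.59 in B41 HET and 12.33, 12.15 and 12.13 in B41 KO (log2 fold change -0.58 ± 0.11, SE, limma adjusted p = 0.0442), but its second probe lay the other way, at 0.29 (limma adjusted p = 0.111). Icam4 read 6.54, 6.48 and 6.47 against 5.88, 5.84 and 5.84, a log2 fold change of -0.64 ± 0.07 (SE, limma adjusted p = 0.00873). Icam2 read 7.14, 7.09 and 7.13 against 7.59, 7.64 and 7.68, a log2 fold change of 0.52 ± 0.07 (SE, limma adjusted p = 0.0150), and was the ligand gene called higher. With 1 sample left out 1 to 3 of the 39 genes were called, and blocking on the slide row left 0.

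Fibronectin (Fn1), the ligand of Itga5, gave different sizes on its 3 probes. The probe brightest over all 6 samples, by which it counts as not called, was the dimmest of the 3 in B41 HET, since the others lost signal in B41 KO. It read 4.63, 4.95 and 4.47 in B41 HET and 4.43, 4.26 and 4.32 in B41 KO, a log2 fold change of -0.35 ± 0.14 (SE, limma adjusted p = 0.213). The other probes read 5.86, 5.88 and 5.58 against 2.25, 2.69 and 2.12, and 5.23, 5.55 and 4.69 against 2.60, 2.23 and 2.74. These 2 probes were called (limma adjusted p = 0.00166 and 0.00772) and were above background on all B41 HET arrays but on no B41 KO array, so only a bound holds, at least 7.50-fold and at least 5.12-fold lower in B41 KO. A bound sets the B41 HET mean against the higher of the measured B41 KO signal and the dimmest signal well above background on that array. Fn1 is also among the monocyte genes given above. Vcam1, the ligand of Itga4 and Itga9, had a log2 fold change of 0.01 on its brighter probe, and osteopontin (Spp1) was not above background on any array. Tgfb1, released from its latent form by Itgav integrins, and Nrros, which holds latent TGF-beta on microglia, had log2 fold changes of -0.28 and -0.36 with limma adjusted p of 0.0938 and 0.128, and neither was called. The second Tgfb1 probe gave -0.56, beyond the fold threshold, and missed the adjusted p (limma adjusted p = 0.0550).

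**Figure D4:**
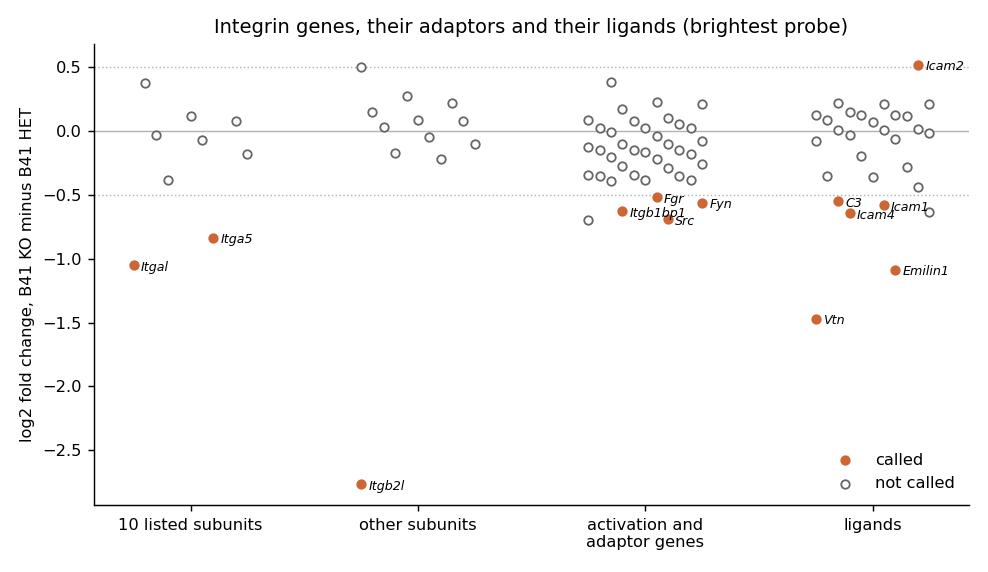
Log2 fold change of B41 KO against B41 HET (y axis) by the brightest probe of each gene well above background on all 6 arrays, for the 10 listed subunits (9 shown, without Itga4), other subunits, activation and adaptor genes, and ligands. Filled points are called and dotted lines mark 0.5 in either direction, with Icam2 at 0.52 the called gene above 0.

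Slide position was not balanced, since B41 KO replicates 2 and 3 alone lay in row 2. Within row 1, B41 KO replicate 1 minus the mean of the 3 B41 HET samples gave -0.98 for Itgal, -0.85 for Itga5, -0.34 for Itgb2, 0.50 for Itgav and -2.53 for Itgb2l on the log2 scale. A fit with the row as a block gives the same values, and with it Itgal was still called (limma adjusted p = 0.0477). These within-row values rest on 1 B41 KO sample.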

How the data were processed

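Microglial RNA of 3 B41 HET and 3 B41 KO samples was measured on 1-colour arrays. Per the file headers, the authors deposited scanner intensity values from Feature Extraction 11.5.1.1, background-subtracted within each array and not normalized between arrays. The authors also deposited a table of processed values without a stated scale. It was read as quantile-normalized log2 values, since its columns held the same quantiles and ranked probes as the arrays do, and was used as an alternative.

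Of 62976 spots per array, control spots were left out, leaving 59305, as were 95 to 136 spots with an outlier flag, 0 of them of the integrin probes. Log2 intensities were quantile normalized, as in the study's methods, and averaged per probe. Genotypes were compared in limma 3.58.1 (R 4.3.3) with genotype as the only term, for probes with at least 2 values per genotype, and p-values were adjusted over all 56601 tested probes. The thresholds for a call, 0.05 for the adjusted p and 0.5 for the size of the log2 fold change, are those of the methods. Confidence intervals are at 95%. The fit was also run on simulated arrays with independent noise and large changes, which does not test small changes or the effect of slide position. Probes were named through accessions in a RefSeq table on GRCm38.p6, which named 33767 (59.7%). The array design names another build, so no gene coordinates are given, and promoter windows come from RefSeq. Figures were drawn with matplotlib 3.10.9.

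All probes of the 10 genes are named. From the other subunits Itgax, Itgae, Itgb3, Itgb7, Itgb8 and Itgb2l are named, and from the other lists the called genes (at most 6 in each direction) and Tln1, Fermt3, Fn1, Icam1, Vcam1, Spp1, Tgfb1 and Nrros. Genes, lists and markers were chosen with earlier results of these data known. A listed gene stands by its brightest probe. The ligand symbol Cyr61 is an older name of Ccn1, which was also listed, and matched no probe.

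Alternatives tried were scaling by the 75th percentile, the authors' log2 values, normexp with an offset of 50 on median spot intensities, a filter on dim probes (well above background on 3 or more arrays), no removal of outlier spots, a trended robust variance in limma, no fold threshold, the mean over a gene's probes, the slide row or the replicate number as a block, and each sample left out. The partner differences and the values within slide row 1 were added after seeing the data. Samples carried the label of biological replicates. The number of arrays limits the precision.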

Additional observations from a re-analysis of the deposited data

How the results depend on the processing

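Itgal and Itga5 were called under every alternative run on single probes (the mean over a gene's probes was not), except that both lost the call under the replicate block (limma adjusted p of 0.0665 and 0.0716) and Itga5 under the slide row block (0.0581). Their log2 fold changes ran from -1.09 to -0.89 and from -0.86 to -0.77. The count of 2 integrin probes called stayed at 2 with any 1 sample left out, became 3 without the fold threshold, and was 0 under the replicate block and 1 under the slide row block. In the same order of the 2 blocks, other subunits had 0 and 2 called (Itgb2l lower and Itga8, at background on all 6 arrays, higher), activation and adaptor genes 0 and 0, and ligands 0 and 0. Activation and adaptor genes had 2 called after the 75th percentile shift, 2 after normexp and 0 to 2 with 1 sample left out, and ligands had 1 after normexp and 1 to 3 with 1 sample left out. Same-numbered samples did not deviate together (correlations of 0.01 to 0.05), so the numbers were not taken as pairs. Over all probes the replicate block left 42 called, the slide row block 444, normexp 1500 and leaving out a sample 792 to 1525, against 2867. The cause was not tested.

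The 75th percentile shift moved the median of all probes to 0.13 and the share of calls that were higher from 34.0% to 45.8%. The direction turned for probes whose values lay within 0.07 of 0, and for the 2 Itga4 probes, which were at background on all 6 arrays, so that no direction is read from them. Itgam A_55_P1977934 was at 0.0052 after that shift and 0.0084 after normexp, and Itga4 A_66_P140103 at 0.13 after that shift. Under the slide row block Itga4 A_55_P2040026 was at 0.011, Itga6 A_55_P2742291 at -0.16, Itga6 A_65_P04508 at 0.0042 and Itgb5 at 0.12. Without B41 KO replicate 2 Itga6 A_55_P2742291 was at -0.054 and Itgb5 at 0.036, the ends of ranges over the samples left out that reached 0.145 and -0.16. Itgb2 met the adjusted p of 0.05 after normexp (0.00382), and not after the 75th percentile shift (0.0871).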
